A study of Rattus norvegicus with 6 samples.

Results

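The mitochondrial respiratory chain subunit genes of the nuclear genome were followed in the crushed rat sciatic nerve. Members were rows of the mRNA table whose symbols name subunits of NADH dehydrogenase (complex I, Nduf), succinate dehydrogenase (complex II, Sdha to Sdhd), the cytochrome bc1 complex (complex III, Uqcr), cytochrome c oxidase (complex IV, Cox4 to Cox8) and ATP synthase (complex V, Atp5). A member also had at least 100 counts summed over the 6 libraries. The rule matched 87 rows and kept 74 of the 30957 rows in the table: 32 of complex I, 4 of complex II, 7 of complex III, 15 of complex IV and 16 of complex V.

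RNA came from the sciatic nerves of Sprague-Dawley rats aged 1 month, with 2 rats and 2 libraries (a and b) in each of 3 groups. In the D4 and D7 groups the middle part of the left sciatic nerve had been clamped with hemostatic forceps, and nerves were taken 4 or 7 days later. The labels call the control group normal controls, while the methods describe the operation without the clamp. The operation was done under chloral hydrate, and all rats were of 1 strain. The total of the mRNA table was 18727255 to 25350886 counts per library, and the counts of replicate libraries differed by more than counting noise (chi-square per degree of freedom from 16.0 to 51.7). Whether crushed nerve distal to the clamp or the whole nerve was taken is not given in the sources used here.

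The respiratory chain sits in the inner mitochondrial membrane. Complexes I and II pass electrons from NADH and succinate to ubiquinone, complex III passes them to cytochrome c, and complex IV passes them to oxygen. Complexes I, III and IV pump protons, and complex V uses the gradient to make ATP. Apart from complex II, each complex is built from subunits of 2 genomes, the nuclear genes described here and a small set in mitochondrial DNA. In a peripheral nerve, Schwann cells, fibroblasts, endothelial and perivascular cells and immune cells all contribute RNA, and the mRNAs of the axons' own nerve cells are made outside the nerve.

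The start regions of 6 members are shown first, because these genes carry the results that follow. Ndufv2, Ndufs4, Sdha and Atp5g2 kept their calls at both days without each library in turn, and Cox5b and Cox8a were the complex IV genes with the largest rises at D4. Each line gives the 150 bases before the RefSeq start on assembly GRCr8, 5′ to 3′ on the gene's strand. Capitals mark matches on either strand to an NRF1 site (2 runs of GCGC with A and any base between them), an ETS site of the kind GABPA binds (CCGGAAG) or a YY1 site (AAGATGGCG), the letters of factors known for nuclear genes of the respiratory chain. The stretches lie at chr9:113157521-113157670 (minus strand, Ndufv2), chr2:47794915-47795064 (minus, Ndufs4), chr1:30764403-30764552 (plus, Sdha), chr7:135678219-135678368 (minus, Atp5g2, named Atp5mc2 in RefSeq), chr9:46417687-46417836 (plus, Cox5b) and chr1:213833624-213833773 (minus, Cox8a).
Ndufv2: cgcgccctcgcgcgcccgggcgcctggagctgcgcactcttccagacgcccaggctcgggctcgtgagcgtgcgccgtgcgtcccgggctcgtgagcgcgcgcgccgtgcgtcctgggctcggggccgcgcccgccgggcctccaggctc
Ndufs4: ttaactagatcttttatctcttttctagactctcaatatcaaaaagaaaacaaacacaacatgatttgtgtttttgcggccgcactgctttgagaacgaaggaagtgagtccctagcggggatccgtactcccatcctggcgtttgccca
Sdha: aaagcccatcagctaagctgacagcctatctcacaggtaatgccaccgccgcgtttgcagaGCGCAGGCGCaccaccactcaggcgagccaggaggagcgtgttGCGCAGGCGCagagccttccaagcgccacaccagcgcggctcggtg
Atp5g2: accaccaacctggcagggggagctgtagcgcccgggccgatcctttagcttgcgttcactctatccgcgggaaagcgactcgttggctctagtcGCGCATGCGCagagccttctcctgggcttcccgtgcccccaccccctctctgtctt
Cox5b: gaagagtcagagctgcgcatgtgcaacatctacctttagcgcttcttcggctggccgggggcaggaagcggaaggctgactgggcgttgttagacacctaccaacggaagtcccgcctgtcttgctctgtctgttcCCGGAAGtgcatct
Cox8a: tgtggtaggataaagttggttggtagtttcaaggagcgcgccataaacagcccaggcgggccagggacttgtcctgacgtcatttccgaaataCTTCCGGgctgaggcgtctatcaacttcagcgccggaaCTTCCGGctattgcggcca

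In these stretches Sdha held 2 NRF1 matches, Atp5g2 held 1, Cox8a held 2 ETS matches and Cox5b held 1. No match to these letters stood in the stretches of Ndufv2 and Ndufs4. In the longer windows described next, Ndufs4 held 1 YY1 match and Sdha held 3 NRF1 matches. Full windows of 250 bases before to 50 bases after the start were matched to 59 of the 74 members (45 by symbol and 14 by synonym), and rows whose symbol stands in more than 1 row of the table were not matched. An NRF1 match was present in 18.6% of them (11 of 59) and in 4.25% of all 33469 windows. The ETS letters were present in 28.8% of the members (17) and in 8.75% of all windows. The YY1 letters were present in 15.3% (9) and 1.73%, and the ESRRA letters (TCAAGGTCA) in 3.39% (2) and 0.433%. The median GC content was 57.3% in the members' windows and 51.7% in all windows. Of the 5 windows of genes that rose at D4, 1 held NRF1, 3 held ETS and 1 held YY1 letters, and of the 11 windows of genes that fell, 2, 2 and 1 did. These are matches of letters, not sites shown to be bound.

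The first question was which subunit genes differed between the control and D4 groups. The counts of the 15195 genes past a filter on low counts, among them all 74 members, entered a quasi-likelihood fit in edgeR, and p-values were adjusted over all of them by the Benjamini-Hochberg method. Levels below are CPM, counts brought to 1 common library total and scaled with TMM factors, and a gene was called where its adjusted p was under 0.05. At an unadjusted p under 0.05, 26 members differed between control and D4, against 53.2% of all tested genes. After adjustment, 7 members rose at D4 and 11 fell, 9.46% and 14.9% of the 74, while 21.6% of all tested genes rose and 22.6% fell. Both shares of the members lay below those of all genes, and this difference was not tested. Only 2 members passed the 2-fold threshold as well, Cox5b upward and Ndufv2 downward, against 11.2% and 10.7% of all genes. The median log2 fold change was 0.02 over the members and -0.04 over all tested genes.

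The direction of the called genes differed by complex, with shares near those of all tested genes in complexes I, IV and V. This split was not tested. All 8 called genes of complex I, both of complex II and the 1 of complex III fell at D4. All 4 of complex IV and all 3 of complex V rose. The 8 of complex I include Ndufa4l2, which is not a fixed part of that complex. The 4 of complex IV include a short second row of Cox6b1. Those that fell were 25% of complex I, 50% of complex II and 14.3% of complex III, against 22.6% of all tested genes. Those that rose were 26.7% of complex IV and 18.8% of complex V, against 21.6% of all tested genes. The median log2 fold changes were -0.22 for complex I, -0.15 for complex II, -0.15 for complex III, 0.30 for complex IV and 0.16 for complex V. The negative signs of complexes I to III rest on the TMM factors: without them the medians were 0.07, 0.14, 0.14, 0.59 and 0.45 in the same order. Control and D4 values did not overlap for 50 of the 74 members, and for 76.2% of all tested genes. At D4 the call counts rest on the libraries: without D4 library b only 1 member was called higher and 3 lower, without D4 library a 2 and 4, and without control library b 2 and 9. The single library left in such a fit is taken to vary like the other groups.

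At D7, 3 members rose and 14 fell, 4.05% and 18.9% of the 74, against 19.5% and 18.1% of all tested genes. At an unadjusted p under 0.05 there were 28 members and 48.4% of all genes. No member rose by 2-fold or more, and Cox4i2 and Ndufa4l2 fell by at least that much, with 9.83% of all genes past this threshold upward and 9.02% downward. Complex I had 0 higher and 9 lower, again with Ndufa4l2 among them. Complex II had 0 and 2, complex III 0 and 1, complex IV 0 and 1, and complex V 3 and 1. The genes that fell were 28.1%, 50%, 14.3%, 6.67% and 6.25% of complexes I to V. The 3 that rose were 18.8% of complex V. The medians by complex were -0.17, -0.32, -0.14, 0.11 and 0.11 in the same order, and 0.13, -0.03, 0.15, 0.40 and 0.41 without TMM factors. Values of the control and D7 groups did not overlap for 39 members and for 71.9% of all genes. Without D7 library a, 1 member was called higher and 4 lower at D7. Without D7 library b, D4 library a or D4 library b, it was 1 and 9 each time, without control library b 1 and 10, and without control library a 5 and 11.

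The comparisons of D4 and of D7 with the control share the same 2 control libraries. Called at both days were Atp5g1, Atp5g2 and Atp5j upward, and Ndufa10, Ndufa4l2, Ndufc2, Ndufs1, Ndufs3, Ndufs4, Ndufv2, Sdha, Sdhc and Uqcrc2 downward. Between D7 and D4, edgeR called 0 members in either direction, against 2.88% of all genes higher and 1.79% lower at D7. Past the 2-fold threshold as well were 1.68% of all genes upward and 0.494% downward. At an unadjusted p under 0.05 there were 6 members (24.7% of all genes), and DESeq2 called 1, Cox5b. Cox5b was also called lower at D7 than at D4 with the replicate block, without a low-count filter and without D7 library b (log2 fold changes -1.54 to -1.17). D4 and D7 values did not overlap for 31 members and for 60.6% of all genes. In the edgeR fit of all libraries, then, a call at 1 day only was not accompanied by a called difference between the days.

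**Figure D1:**
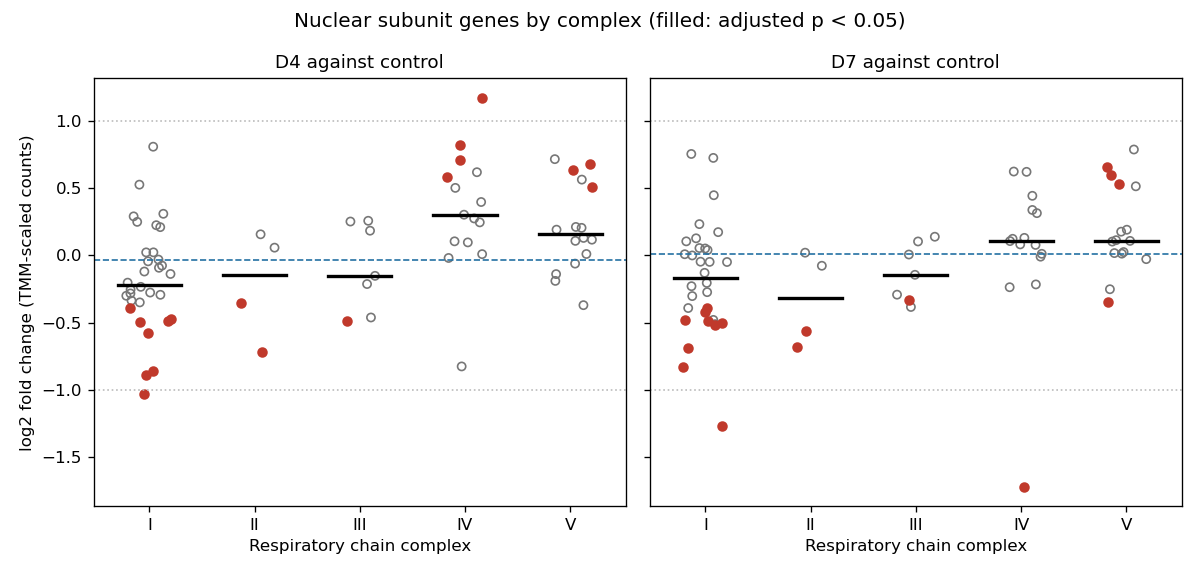
log2 fold change of each of the 74 members at D4 and at D7 against control, by complex. Filled points passed adjusted p under 0.05, black bars are medians of a complex, the dashed line is the median of all tested genes and dotted lines mark a 2-fold change. With TMM scaling, filled points of complexes I to III lie below 0 at both days, and those of complex IV at D4 lie above it.

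Complex I takes electrons from NADH through a flavin and a chain of iron-sulfur clusters. Its lowest member at D4 was Ndufv2 (ENSRNOG00000042503, Rnor_6.0 chr9:113875703-113900190), a subunit of the NADH-oxidising module that carries an iron-sulfur cluster. Its normalised counts were 74.5 and 68.2 CPM in the controls, 33.7 and 36.2 at D4, and 39.3 and 40.8 at D7. Every injured library lay well below both controls. The log2 fold change was -1.03 (SE 0.10, adjusted p = 0.000577) at D4 and -0.83 (SE 0.10, adjusted p = 0.00167) at D7.

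Its neighbour in the same module, Ndufv1, which binds the flavin, had 58.8 and 50.8 CPM in the controls, 49.9 and 52.9 at D4, and 51.1 and 54.9 at D7. These ranges overlapped and neither day was called (log2 fold changes -0.09 and -0.05). The count of Ndufv2 per count of Ndufv1 was 1.27 and 1.34 in the controls, 0.676 and 0.684 at D4, and 0.769 and 0.743 at D7. A ratio within a library needs no scaling between libraries, and it was lower in all 4 injured libraries. This pair was chosen after the values had been seen.

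Ndufs4, a small accessory subunit at the base of the arm that binds NADH, followed the same pattern (ENSRNOG00000011383, chr2:46372518-46476203). It had 62.8 and 56.9 CPM in the controls, 33.1 and 33.0 at D4, and 37.5 and 36.8 at D7. Both injured groups lay below the controls, with log2 fold changes of -0.86 (SE 0.09, adjusted p = 0.001) and -0.69 (SE 0.09, adjusted p = 0.00299). Ndufs4 per count of Ndufs7, another subunit of complex I, was 2.14 and 1.79 in the controls, 1.16 and 1.12 at D4, and 1.41 and 1.54 at D7. Ndufv2 and Ndufs4 were the complex I genes whose calls held at both days without each library in turn. Over those 6 fits the log2 fold change at D4 ran from -1.09 to -0.97 for Ndufv2 and from -0.93 to -0.78 for Ndufs4.

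Ndufs1, the largest subunit of the same module and a carrier of iron-sulfur clusters, had 120.3 and 128.3 CPM in the controls, 89.0 and 87.7 at D4, and 83.8 and 93.5 at D7. It fell at both days by close to the same amount, -0.49 (SE 0.10, adjusted p = 0.0083) and -0.49 (SE 0.10, adjusted p = 0.0106). The D4 call was lost without either D4 library and the D7 call without D7 library a, with log2 fold changes never above -0.45 and -0.38. The other called core and accessory subunits had changes of about this size. Ndufa10, Ndufc2 and Ndufs3 fell at both days with log2 fold changes from -0.49 to -0.39, Ndufa5 fell at D4 (-0.58), and Ndufa8 (-0.50) and Ndufb3 (-0.52) fell at D7. Each of those calls was lost without at least 2 of the libraries, in turn. Ndufs3 overlaps Kbtbd4 in the annotation, and no source used here says if reads were counted by strand.

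Ndufa4l2 is a paralogue of Ndufa4 known as a target of hypoxia-inducible factor and as a marker of pericytes, and it is not a fixed part of complex I. It had 7.36 and 8.14 CPM in the controls, 3.98 and 4.40 at D4, and 2.63 and 3.81 at D7. All injured libraries were below both controls, and the log2 fold change was -0.89 (SE 0.24, adjusted p = 0.0289) at D4 and -1.27 (SE 0.25, adjusted p = 0.011) at D7. The D4 call was lost without any 1 of the 4 control and D4 libraries, and the D7 call without D7 library a (adjusted p = 0.0506, where the range over the 6 fits began at 0.0144). Ndufa4, now classed with complex IV, had 43.0 and 42.7 CPM in the controls, 35.4 and 36.5 at D4 and 31.8 and 37.7 at D7, and was not called. Ndufa4l2 per count of Ndufa4 was 0.171 and 0.190, then 0.113 and 0.120, then 0.0826 and 0.101 in the 3 groups.

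The complex I member with the highest log2 fold change at both days was not called. This was Ndufa2, an accessory subunit that shares an annotated overlap with Tmco6. It had 14.0 and 7.29 CPM in the controls, 16.9 and 20.5 at D4 and 16.3 and 19.6 at D7, with control b well below control a (log2 fold change 0.81, SE 0.30, adjusted p = 0.0749 at D4). Ndufb8, an accessory subunit of the membrane arm, had 33.3 and 26.3 CPM in the controls, 26.4 and 31.9 at D4 and 25.7 and 31.9 at D7, with full overlap. Ndufc1 had few counts, 248 over all libraries, and the largest rise between D4 and D7 of the complex. Its values were 1.70 and 1.69 CPM in the controls, 1.23 and 1.51 at D4 and 2.44 and 3.17 at D7 (log2 fold change D7 against D4 1.02, SE 0.31, adjusted p = 0.111).

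Complex II oxidises succinate, belongs to the citrate cycle as well as to the chain, and has all 4 subunits encoded in the nucleus. Sdha, the flavoprotein that oxidises succinate (ENSRNOG00000013331, chr1:31545631-31570601), had 211.3 and 193.8 CPM in the controls, 122.7 and 123.7 at D4 and 123.3 and 130.0 at D7. The 4 injured libraries lay in a narrow band well below the controls. The log2 fold change was -0.72 (SE 0.09, adjusted p = 0.00159) at D4 and -0.68 (SE 0.09, adjusted p = 0.00266) at D7, 1.64-fold and 1.60-fold lower. Both calls held without each library.

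Sdhb, the iron-sulfur subunit that binds to Sdha, had 61.1 and 57.0 CPM in the controls, 59.9 and 63.0 at D4 and 54.2 and 57.7 at D7. Its groups overlapped at both days (log2 fold changes 0.06 and -0.08, neither called). The count of Sdha per count of Sdhb was 3.46 and 3.40 in the controls, 2.05 and 1.96 at D4 and 2.27 and 2.25 at D7. The ratio of the mRNA counts of these partners was thus lower in every injured library. This pair, too, was chosen after the values had been seen.

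Of the 2 membrane anchors only Sdhc was called. It had 126.2 and 129.5 CPM in the controls, 102.9 and 97.2 at D4 and 86.5 and 86.7 at D7. It fell at D4 (-0.35, SE 0.08, adjusted p = 0.0165) and at D7 (-0.56, SE 0.08, adjusted p = 0.004). The D7 call held without each library, and the D4 call was lost without either D4 library (log2 fold change -0.39 to -0.31 over the 6 fits). Sdhd had 64.8 and 68.0 CPM in the controls, 78.7 and 69.3 at D4 and 62.1 and 72.5 at D7 and was called at neither day.

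In complex III, Uqcrc2, a core protein of the matrix side, had 154.8 and 156.9 CPM in the controls, 115.2 and 107.2 at D4 and 124.1 and 123.8 at D7. It was below the controls in all 4 injured libraries and fell at D4 (-0.49, SE 0.08, adjusted p = 0.00536) and D7 (-0.33, SE 0.08, adjusted p = 0.0254). The D4 call was lost without D4 library b (-0.44 to -0.54 over the 6 fits) and the D7 call without any 1 library (-0.34 to -0.30). Its core partner Uqcrc1 had 77.2 and 84.0 CPM in the controls, 88.7 and 94.3 at D4 and 79.2 and 82.7 at D7, higher than the controls at D4 in both libraries but not called (0.18, SE 0.09, adjusted p = 0.156). Uqcrfs1, the Rieske iron-sulfur protein, had 80.8 and 74.5, then 74.1 and 65.7, then 68.5 and 72.1 CPM and was not called. Of the other 4 members none was called, with log2 fold changes at D4 from -0.46 (Uqcrb) to 0.26 (Uqcrq) and at D7 from -0.38 (Uqcrb) to 0.14 (Uqcr10 on chromosome 14).

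In complex IV, 4 of 15 members rose at D4 and 0 fell, 26.7% against 21.6% of all tested genes. Its member with the largest rise was Cox5b, a nuclear subunit on the matrix side (ENSRNOG00000016660, chr9:43259709-43262040). It had 14.1 and 15.6 CPM in the controls, 29.2 and 37.6 at D4 and 11.5 and 18.5 at D7. Both D4 libraries stood above all others, and the D7 libraries spanned the controls. The log2 fold change was 1.17 at D4 (SE 0.25, adjusted p = 0.0117) and 0.01 at D7 (SE 0.25, adjusted p = 0.975). D7 against D4 gave -1.16 (SE 0.25, adjusted p = 0.059). Cox5b per count of Cox5a was 0.741 and 1.173 in the controls, 1.175 and 1.511 at D4 and 0.612 and 0.730 at D7. In that ratio to another complex IV subunit, D4 library a was close to control library b. The D4 call was lost without D4 library b or control library a (log2 fold change 0.98 to 1.34 over the 6 fits).

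Cox8a, a small membrane subunit (ENSRNOG00000021177, chr1:222466575-222468896), had 42.9 and 26.4 CPM in the controls, 60.8 and 61.8 at D4 and 47.3 and 59.4 at D7. All injured libraries were above both controls, which differed widely from each other, and it rose at D4 (0.82, SE 0.23, adjusted p = 0.0326) and was not called at D7 (0.62, SE 0.23, adjusted p = 0.0836). Cox6a1, the widely expressed isoform of subunit 6a, had 29.7 and 24.7, then 39.7 and 41.7, then 31.1 and 36.6 CPM and rose at D4 (0.58, SE 0.14, adjusted p = 0.0166). Both calls were lost without control library b or either D4 library, with log2 fold changes down to 0.51 for Cox8a and 0.45 for Cox6a1. Cox6a1 overlaps Gatc in the annotation.

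Cox6b1 stood in 2 rows, a row on chromosome 1 and a short row on chromosome 2 that may share reads with it. The short row rose at D4 (6.49 and 5.37 CPM in the controls, 9.65 and 9.72 at D4, log2 fold change 0.71, SE 0.23, adjusted p = 0.0472), and the row on chromosome 1 was not called (0.40, SE 0.22, adjusted p = 0.183). The call of the short row was lost without any 1 of the 4 control and D4 libraries (0.58 to 0.85 over the 6 fits) and with the replicate block (0.70). The split between such copies is uncertain. The 2 rows of Cox7a2, on chromosomes 8 and 14, had log2 fold changes at D4 of 0.50 and 0.27 and were not called. Cox4i1, which begins the assembly of the nuclear subunits around the mitochondrial core, had 80.0 and 82.9, then 97.9 and 95.2, then 77.2 and 84.6 CPM (0.25 at D4, SE 0.09, adjusted p = 0.0703). Cox5a, which pairs with Cox4 early in assembly, had 19.1 and 13.3, then 24.8 and 24.9, then 18.7 and 25.3 CPM (0.62 at D4, SE 0.22, adjusted p = 0.0621).

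Cox4i2, the isoform of subunit 4 known from lung and vessel walls, was the exception in complex IV (ENSRNOG00000007827, chr3:148234193-148245416). It had 2.99 and 3.08 CPM in the controls, 2.09 and 1.33 at D4 and 0.845 and 0.990 at D7, with 234 counts over all libraries, the fewest of any member. All 4 injured libraries lay below both controls. The log2 fold change was -0.83 at D4 (SE 0.34, adjusted p = 0.0917) and -1.72 at D7 (SE 0.36, adjusted p = 0.0131), 3.29-fold lower, and the D7 call was lost without D7 library a (-1.84 to -1.58 over the 6 fits). Cox4i2 per count of Cox4i1 was 0.0373 and 0.0371 in the controls, 0.0214 and 0.0140 at D4 and 0.0109 and 0.0117 at D7.

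The isoforms of striated muscle were near or at 0. Cox6a2 had 0 and 0 counts in the controls, 7 and 5 at D4 and 0 and 1 at D7, and Cox8b had 2 counts in 1 D4 library and 0 in the others. Both fell short of the minimum of 100 counts and were not tested. Cox6b2, the isoform known from testis, had 2.11 and 2.65, then 3.73 and 2.14, then 2.11 and 1.98 CPM and was not called. The mRNA table held 0 rows with the symbol Cox7a1. The 13 rows under the minimum also held Ndufv3-ps1 (81 counts), 2 rows of Atp5f1 (75 and 0), a second row of Ndufa13 (29), Atp5hl1 (10), a second row of Uqcr10 (6), and Ndufa1, Ndufb4l1, Cox8c, Cox7b2 and Cox6c1, each listed at 0. Just inside the minimum stood Cox4i2 (234) and Ndufc1 (248).

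**Figure D2:**
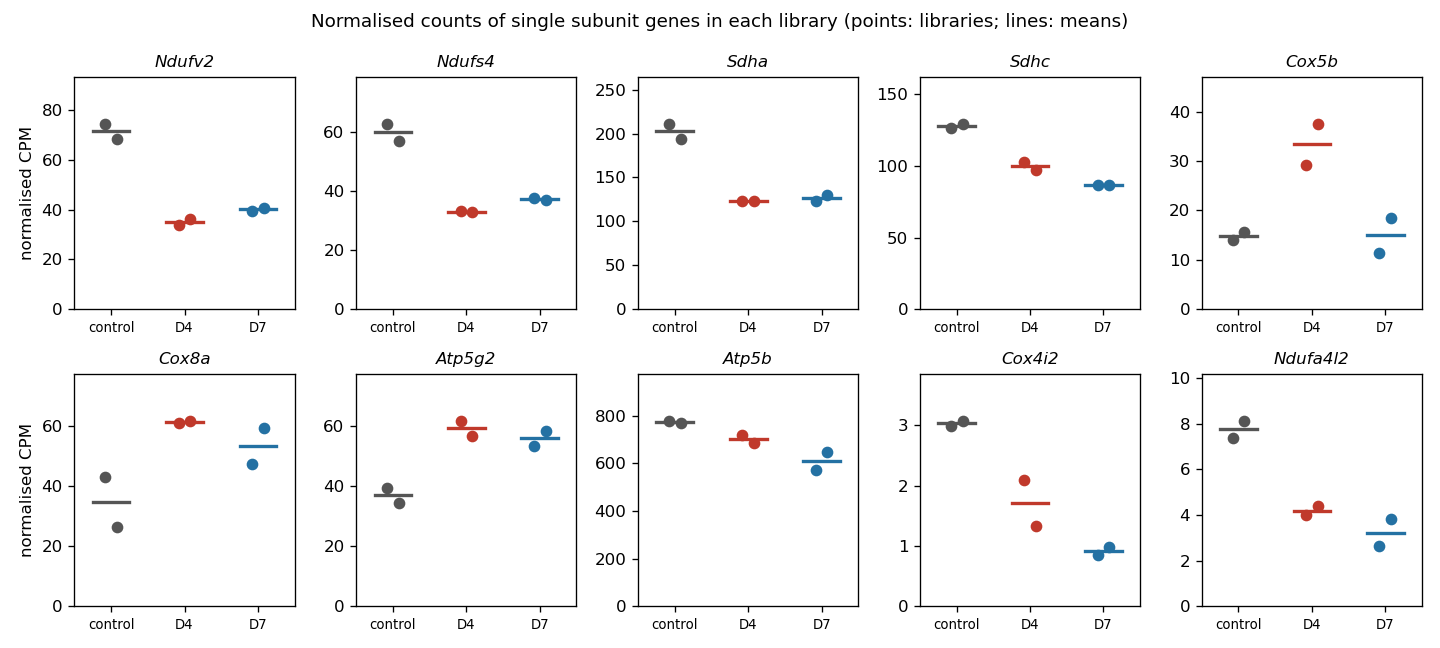
Normalised counts (CPM) of 10 members in the 6 libraries, with points for libraries and lines for group means, each panel starting at 0. Ndufv2, Ndufs4 and Sdha lie lower in all 4 injured libraries, Cox5b is high at D4 alone, Atp5g2 lies higher at both days, and Cox4i2 and Ndufa4l2 have their lowest values at D7.

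Complex V makes ATP with a soluble F1 head turned by a ring of c subunits in the membrane. The c subunit is encoded by Atp5g1, Atp5g2 and Atp5g3, whose mature proteins are the same. Atp5g2 (ENSRNOG00000015320, chr7:144264199-144272578) had 39.6 and 34.5 CPM in the controls, 61.9 and 56.8 at D4 and 53.6 and 58.4 at D7. All 4 injured libraries lay above both controls, and it rose at D4 (0.68, SE 0.11, adjusted p = 0.0045) and D7 (0.60, SE 0.11, adjusted p = 0.00912), 1.60-fold and 1.51-fold. Both calls held without each library.

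Atp5g1 also rose, from 13.8 and 10.7 CPM in the controls to 17.4 and 20.5 at D4 and 18.4 and 20.4 at D7 (0.63, SE 0.17, adjusted p = 0.0281, and 0.66, SE 0.17, adjusted p = 0.0286). Its calls were lost without control library b or either D4 library at D4, and without those or either D7 library at D7 (log2 fold changes down to 0.46 and 0.49). Atp5g3 had 35.6 and 32.0, then 38.7 and 38.5, then 33.0 and 44.2 CPM and was not called (0.19 at both days). Atp5j, a subunit of the stalk between head and membrane, rose at both days (0.51, SE 0.16, adjusted p = 0.0481, and 0.53, SE 0.16, adjusted p = 0.0474), but both calls were lost without any 1 library (0.38 to 0.62 at D4 and 0.49 to 0.59 at D7). It overlaps Gabpa, which had 10361 counts against its 1230.

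The F1 head was led by Atp5b, the catalytic beta subunit, which was also the member with the highest control FPKM (381). Atp5b had 779.4 and 768.7 CPM in the controls, 718.7 and 687.0 at D4 and 570.2 and 649.3 at D7. It was below both controls in all 4 injured libraries and fell at D7 (-0.34, SE 0.10, adjusted p = 0.0447), a call lost without any of D4 a, D4 b, D7 a, control a or control b (-0.44 to -0.22). Its partner Atp5a1, the alpha subunit, had 287.5 and 271.4, then 304.6 and 297.7, then 300.9 and 301.2 CPM and was not called (0.11 at both days). The highest log2 fold changes of the complex were those of Atp5i (0.72 and 0.79, adjusted p = 0.11 and 0.0961), a small membrane subunit with 1.63 to 3.81 CPM. Atp5s, which is not a core subunit, had the lowest at D4 (-0.37).

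Summed over their genes, the members took 0.336% to 0.390% of the mRNA counts of a library. As normalised CPM, complex I summed to 1066 and 1008 in the controls, 836.2 and 858.8 at D4, and 818.7 and 877.3 at D7. Complex II summed to 463.4 and 448.3, then 364.2 and 353.2, then 326.1 and 347.0, and complex III to 413.5 and 415.3, then 374.7 and 364.8, then 354.5 and 377.3. For these 3 complexes every injured library was lower than both controls on this scale. As a share of mRNA counts, with no TMM factors, that held for complex II alone (0.0400% and 0.0397% in the controls, 0.0347% to 0.0388% in the injured). Complex I then overlapped (0.0920% and 0.0891% against 0.0871% to 0.0947%), and complex III was higher in every injured library (0.0357% and 0.0367% against 0.0377% to 0.0407%). Complex IV summed to 473.7 and 439.3, then 544.6 and 561.1, then 461.7 and 511.7, higher than the controls in both D4 libraries. Its share was higher in every injured library (0.0409% and 0.0389% in the controls against 0.0491% to 0.0599%). Complex V summed to 1548 and 1486, then 1541 and 1515, then 1373 and 1500, with overlap at both days, while its share was higher in every injured library (0.134% and 0.131% against 0.146% to 0.164%). A sum follows its most abundant genes, and Atp5b alone gave 779.4 of 1548 in control library a.

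**Figure D3:**
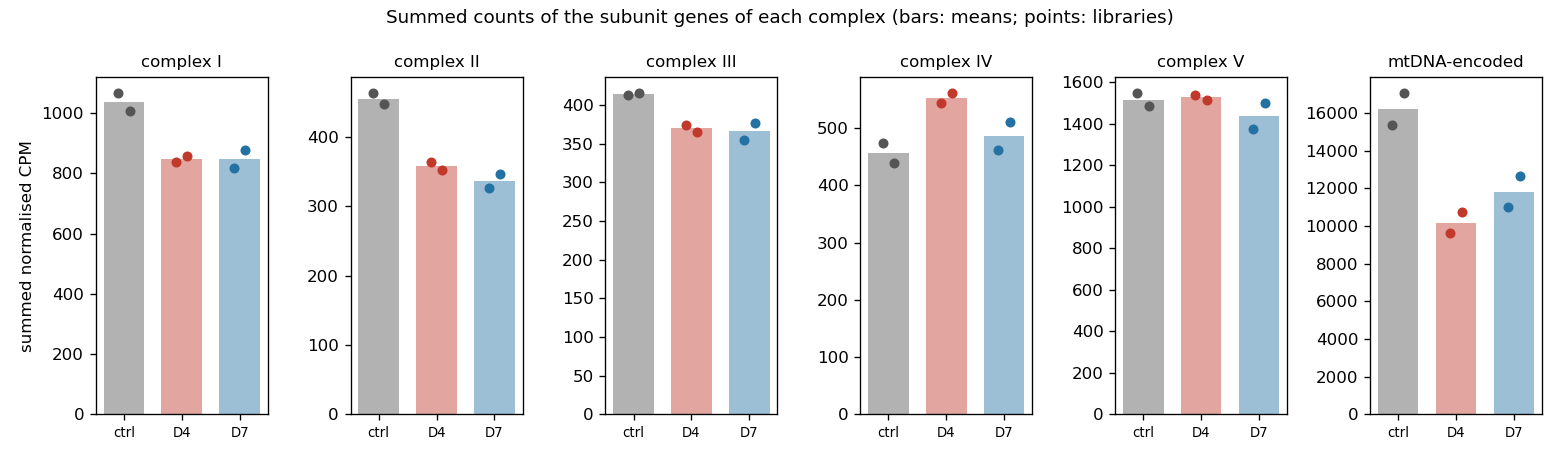
Summed normalised counts (CPM) of the genes of each complex, and of the 13 subunits encoded in mitochondrial DNA, in the 6 libraries (points) with group means (bars, from 0). On this TMM scale complexes I to III and the subunits of mitochondrial DNA lie lower in the injured nerves, complex IV lies higher at D4, and complex V overlaps. As shares of mRNA counts, complex I overlaps and complexes III, IV and V are higher in every injured library.

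The other subunits of these complexes are encoded in mitochondrial DNA and transcribed there as long precursors. All 13 were in the table and tested, and reads from nuclear copies of mitochondrial DNA may be counted with them. At D4, 10 of the 13 fell (76.9%) and 0 rose (median -0.90), against 22.6% and 21.6% of all tested genes. At D7, 9 fell (69.2%) and 0 rose (median -0.59), against 18.1% and 19.5% of all tested genes. Together the 13 had 15374 and 17048 CPM in the controls, 9612 and 10726 at D4 and 10990 and 12655 at D7. In every injured library their sum was below both controls. As a share of mRNA counts they were at 1.33% and 1.51% in the controls, 1.02% and 1.15% at D4 and 1.17% and 1.37% at D7, so without TMM factors D7 library b lay above control library a. The genes of complex I led, with 6 of 7 called lower at both days. Mt-nd2 had 646.0 and 725.2 CPM in the controls, 179.5 and 245.4 at D4 and 245.3 and 355.2 at D7 (-1.69, SE 0.23, adjusted p = 0.00215, and -1.19, SE 0.22, adjusted p = 0.00939).

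In complex IV the called genes of the 2 genomes went in opposite directions at D4, where 1 gene of mitochondrial DNA was called. Mt-co1, the catalytic subunit, had 9032 and 9782 CPM in the controls and 6363 and 6813 at D4 and fell (-0.51, SE 0.12, adjusted p = 0.0181), while Mt-co2 (-0.38, adjusted p = 0.084) and Mt-cox3 (-0.40, adjusted p = 0.0791) were not called, and 4 of 15 nuclear members rose. In complex V both Mt-atp6 (-0.79, adjusted p = 0.0106) and Mt-atp8 (-1.15, adjusted p = 0.00227) fell at D4, and 3 of 16 nuclear members rose. In complex III Mt-cytb fell (-0.90, adjusted p = 0.00241). Mt-nd3 was at 12.2 to 12.9 CPM in the controls and 9.89 to 16.9 in the injured nerves and was not called (-0.02 at D4, adjusted p = 0.942). Between D4 and D7 all 13 had positive log2 fold changes from 0.15 to 0.62 and 0 were called.

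**Figure D4:**
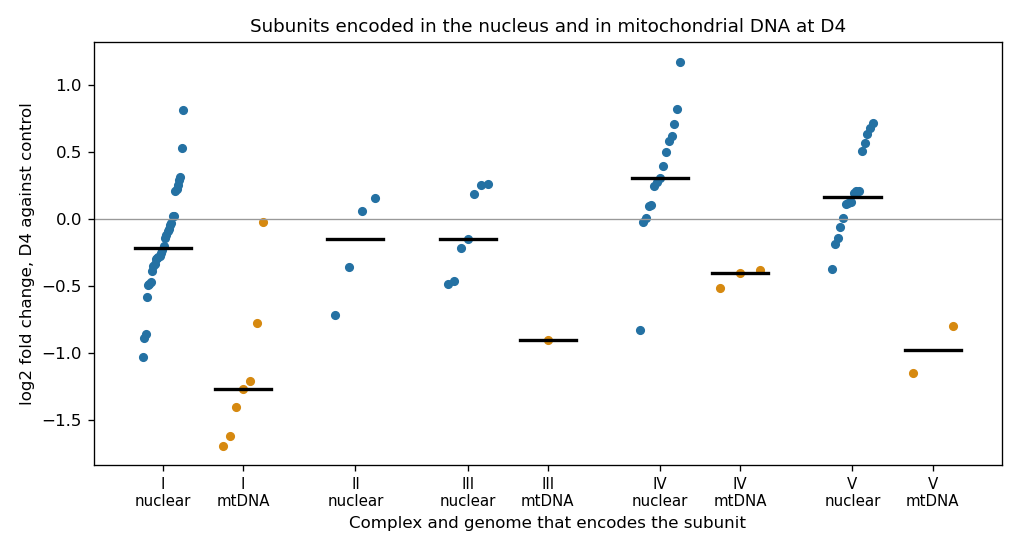
log2 fold change at D4 of subunit genes of each complex, nuclear (blue) and of mitochondrial DNA (orange), with medians as bars. In complexes IV and V the nuclear medians are 0.30 and 0.16 and those of mitochondrial DNA are -0.40 and -0.97.

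The other genes of mitochondrial metabolism were followed by fixed lists, to be read against the 21.6% of all genes that rose and 22.6% that fell at D4, and 19.5% and 18.1% at D7. Of 13 citrate cycle genes, 6 fell at D4 (46.2%) and 8 at D7 (61.5%) and 0 rose, with Sucla2, a subunit of succinyl-CoA synthetase that makes ATP, lowest at both days (82.1 and 93.3 CPM in the controls, 40.3 and 44.1 at D4, 46.9 and 43.4 at D7, log2 fold changes -1.06 and -0.96). Its highest were Fh at D4 (0.44) and Suclg1 at D7 (0.03), neither called. Of 40 assembly factors, 1 rose and 9 fell at D4 (2.5% and 22.5%), and 1 and 5 at D7 (2.5% and 12.5%), so the share that fell was close to that of all genes at D4 and below it at D7. Cox19, for complex IV, was the 1 that rose (0.87 and 0.64, adjusted p = 0.0116 and 0.0387), and Coa6 had the highest log2 fold changes (1.20 and 1.08, not called) at 0 to 0.517 CPM. Lyrm7, a chaperone for the Rieske protein of complex III, was lowest (-1.01, adjusted p = 0.0144, and -1.22, adjusted p = 0.00954). Sdhaf2, which inserts the flavin into Sdha, had 71.0 and 61.1 CPM at D4 against 115 and 124 in the controls and fell at both days (-0.85 and -0.79), and Tmem70, for complexes I and V, fell too (-0.99 and -0.78). Cox19, Sdhaf2 and Tmem70 were named after their values had been seen.

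Of 16 fatty acid oxidation genes, 2 rose and 5 fell at D4 (12.5% and 31.2%), and 2 and 6 at D7 (12.5% and 37.5%). The 2 isoforms of carnitine palmitoyltransferase 1 were the extremes: Cpt1b fell (-1.75, adjusted p = 0.00115, at D4) and Cpt1a rose (1.07, adjusted p = 0.0016). Of 70 mitochondrial ribosome genes, 8 rose and 5 fell at D4 (11.4% and 7.14%) and 3 and 3 at D7 (4.29% each). Of 11 genes for cytochrome c and ubiquinone, 0 rose and 2 fell (18.2%), then 0 and 1 (9.09%), with log2 fold changes from -0.78 (Coq7) to 0.31 (Coq4) at D4 and from -0.45 (Coq5) to 0.25 (Coq6) at D7. Mrpl51 was the lowest mitochondrial ribosome gene at both days (-0.77 and -0.81, adjusted p = 0.00685 and 0.00734), and the highest were Mrpl14 at D4 (0.95, not called) and Mrpl22 at D7 (0.92, adjusted p = 0.0166).

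Of 16 regulators of mitochondrial genes, 1 rose and 3 fell at D4 (6.25% and 18.8%), and 1 and 2 at D7 (6.25% and 12.5%). Tfb1m, which methylates the ribosomal RNA of mitochondria, had 39.2 and 34.6 CPM in the controls, 12.8 and 12.7 at D4 and 11.9 and 11.9 at D7 (-1.53, adjusted p = 0.00032, and -1.63, adjusted p = 0.000466). Ppargc1a, the coactivator PGC-1alpha, fell at both days (8.91 and 8.38 CPM in the controls, 4.84 and 5.21 at D4, 3.47 and 4.45 at D7, -0.78 and -1.13), and Ppargc1b fell at D4 (-0.94). Pprc1, a related coactivator, rose (0.65 and 0.47, adjusted p = 0.00449 and 0.0183). Esrrg, a nuclear receptor, had the lowest log2 fold changes (-1.92 and -3.12) at 0 to 3.74 CPM and was not called (adjusted p = 0.134 and 0.0549). The genes for NRF1, GABPA, YY1, ESRRA and TFAM, also on the list, were not called.

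Markers of the cell types of the nerve differed between the groups. In bulk samples, fewer cells of a type cannot be told apart from less RNA per cell. Over all tested genes, 21.6% rose and 22.6% fell at D4, and 19.5% rose and 18.1% fell at D7. All 9 myelinating Schwann cell markers fell at D4 and 6 at D7, and their summed level was 72105 to 105791 CPM in the controls, 3396 and 3882 at D4 and 10846 to 17396 at D7. Of 7 repair Schwann cell markers 6 and 5 rose, of 10 macrophage markers 10 and 9, and of 6 markers of dividing cells 6 and 6. Endothelial markers fell (4 and 5 of 5), as did 3 and 5 of 8 pericyte and smooth muscle markers (37.5% and 62.5%). Ndufa4l2 is known from pericytes and Cox4i2 from vessel walls. The summed pericyte and smooth muscle level was 1576 and 6039 CPM in the controls, 1149 and 1215 at D4 and 817.2 and 1387 at D7. The part of these cells in the members' results was not tested.

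Markers of skeletal muscle and adipocytes, tissue outside the nerve, were present at low or uneven levels. Skeletal muscle markers (15 rows) summed to 65.2 and 101.0 CPM in the controls, 126.9 and 26.8 at D4 and 38.0 and 53.9 at D7. Of 13 tested, 0 rose at either day, and 3 fell at D4 (23.1%) and 2 at D7 (15.4%). At each day 2 of these fell by at least 2-fold. Over all tested genes 22.6% fell at D4 and 18.1% at D7. Adipocyte markers, 11 in the table, summed to 2158 and 1653, then 713.3 and 356.2, then 68.7 and 799.4. The adipocyte level was lower in all injured libraries, with 0 of 10 tested markers called at D4 and 1 at D7. Fibroblasts are cells of the nerve. Their markers summed to 55004 and 59709 CPM in the controls, 37271 and 33588 at D4 and 28920 and 31883 at D7. Of 5 fibroblast markers tested, 1 rose and 3 fell at both days. Of 4 erythroid markers 0 were called at D4 and 2 fell at D7. Between 0 and 5 skeletal muscle markers were at 0 in a library, and 1 adipocyte marker was at 0 in all libraries. The part of these tissues and cells in the members' results was not tested.

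Subunit mRNAs are short, and fold changes went with length across all genes. The length implied by the ratio of counts to FPKM had a median of 739.5 nt for the members and 2413 nt for all tested genes. Across the 74 members Spearman's rho between length and the log2 fold change was -0.50 at D4 and -0.42 at D7, given as a description over genes that share the same 6 libraries. Below 1000 nt the median at D4 was 0.20 for the 48 members and 0.20 for the 2004 genes of that length, and all 7 members that rose at D4 were in this class, 14.6% of these members against 20.5% of all genes of that length. From 1000 to 2000 nt the median at D4 was -0.23 for 21 members, and 0.0035 for 4051 genes, of which 23.8% (5 members) and 19.01% fell. At D7 the medians of members and of all genes were 0.066 and 0.18 below 1000 nt, and -0.23 and 0.029 from 1000 to 2000 nt. Of the longer class, 38.1% of the members (8) and 16.0% of all genes fell at D7. Below 1000 nt it was 8.33% and 8.28%. The cytosolic ribosome, another set of short abundant mRNAs, had 36 of 73 genes higher (49.3%) and 0 lower at D4 and 27 (37.0%) and 0 at D7. Ndufv2 (889 nt), Ndufa4l2 (943 nt), Ndufa5 (546 nt) and Ndufc2 (560 nt) were the members below 1000 nt that fell at D4. The part of length in the members' results was not tested.

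**Figure D5:**
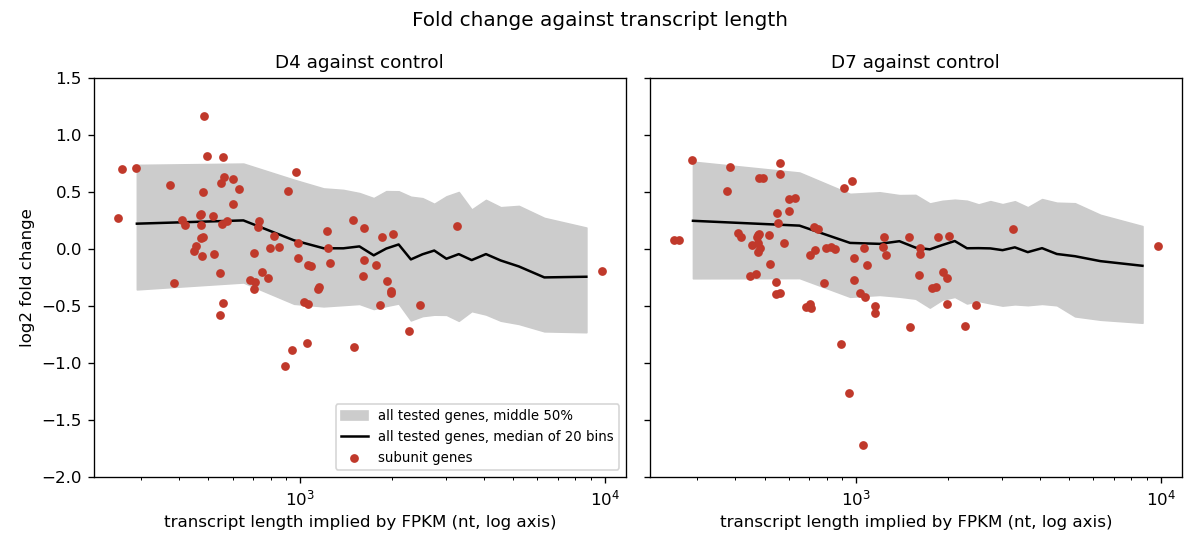
log2 fold change of the members (red) against the transcript length implied by FPKM (log axis), at D4 and D7, with the median and the middle 50% of all tested genes in 20 bins of equal gene number. The median of all genes lies above 0 at short lengths, and the members near 1000 nt and longer lie mostly below it.

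The scaling between libraries set where 0 lies. The TMM factors were 0.863 and 0.885 in the controls and 1.06 to 1.08 in the injured libraries, and without them the median of all genes moved to 0.25 at D4 and 0.31 at D7. Then 30 members were called higher and 3 lower at D4 and 20 and 6 at D7. The calls lost then were downward ones, 8 at each day, among them Ndufs1, Ndufs3, Ndufa10, Ndufc2 and Uqcrc2 at both days, Sdhc and Ndufa4l2 at D4 and Atp5b at D7, all still with negative log2 fold changes. A change of library factors moves all genes of a comparison by nearly the same amount. Relative to the median of all genes with TMM factors, complex I was at -0.18 at D4, complex IV at 0.34 and complex V at 0.20. Ndufs4, Ndufv2 and Sdha downward and Atp5g2 upward were called at both days, and Sdhc downward at D7, under every setting other than the test of the 2-fold change itself, which calls 0 members.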

How the data were processed

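Sciatic nerve RNA of 6 rats (2 per group) was analysed. The authors removed ribosomal RNA, sequenced paired ends, mapped reads with HISAT2 2.0.4 to the Ensembl rat genome (Rnor_6.0), assembled transcripts with StringTie 1.3.0 and deposited whole-number fragment counts per gene, with FPKM beside them. The FPKM values deposited by the authors were used only for levels within a group and for implied transcript length (count per FPKM, scaled by the library total). The lncRNA table was not used here. Replicates are different rats, and with 2 per group p-values rest on 3 residual degrees of freedom.

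Counts were tested with edgeR 4.0.16 (R 4.3.3, limma 3.58.1): filterByExpr, TMM factors, glmQLFit and glmQLFTest in 1 fit of the 6 libraries, with Benjamini-Hochberg adjustment. Standard errors were derived from each log2 fold change and its F value (log2 fold change over root F). The square root of the common dispersion was 0.181. The procedure was tested on simulated data. DESeq2 1.42.0, other scalings and filters, fits of only the 2 groups compared, a replicate block, a test of the 2-fold change itself, a table without mitochondrially encoded genes and fits without each library were the alternatives. Tables and figures were made with Python 3.11.15, pandas 2.3.3, numpy 2.4.6 and matplotlib 3.10.9.

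The members, pathway lists, markers and rules were chosen with earlier results of these data known. Named members were a fixed list of core subunits and isoforms, the highest and lowest log2 fold change of each complex in each comparison, and every member past adjusted p under 0.05 with a 2-fold change. Lists are given as counts, those of mitochondrial metabolism, assembly and regulation also with their extremes. Other members past the test, such as Ndufs4 and Atp5j, and the partner genes in ratios were named after their values were seen. Promoter windows are from RefSeq, assembly GRCr8, and were matched by symbol or synonym. Coordinates of genes are those of the deposited table.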

Additional observations from a re-analysis of the deposited data

How the results depend on the processing

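Some counts moved with the processing. Without TMM factors D4 against control gave 30 members higher and 3 lower (4 and 0 by at least 2-fold, median 0.30), D7 against control gave 20 and 6 (3 and 1, median 0.31), and Cox4i1 at D7 changed from -0.01 to 0.28 and was then called. In fits of only the 2 groups compared, 0 members fell by at least 2-fold at D4, and 1 rose and 9 fell at D7. With at least 10 counts in every library, 0 fell by at least 2-fold at D4. Testing the 2-fold change itself left 0 higher and 0 lower at D4 and 0 lower at D7. DESeq2 and the fit without a low-count filter each called 1 member lower at D7 than at D4, by at least 2-fold (Cox5b).

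Letters a and b name different rats in each group. Deviations from the group means correlated, between libraries of 1 letter, at 0.019 for control and D4, 0.224 for control and D7 and -0.172 for D4 and D7, so the letters were not taken to pair samples. With the replicate block, 5 members rose and 11 fell at D4, 2 and 11 at D7, and 1 was lower at D7 than at D4 (1 by at least 2-fold). Swapping a and b at D4, an alternative added after seeing the data, gave 6 and 11, 2 and 13, and 0.

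Leaving out each library in turn gave 1 to 7 higher, 3 to 11 lower, 0 to 2 higher and 0 to 1 lower by at least 2-fold and medians from -0.05 to 0.11 at D4. At D7 it gave 1 to 5 higher, 4 to 11 lower, 0 to 2 higher and 0 to 2 lower by at least 2-fold and medians from -0.11 to 0.12. For D7 against D4 it gave 0 to 1 lower, 0 to 1 by at least 2-fold and medians from -0.17 to 0.016. Such a fit has fewer libraries, and the cause of the other differences was not tested. RLE size factors and the table without mitochondrially encoded genes kept each of these counts within 1.5 times. Over the single genes called in either fit, 390 values kept direction and call, 135 lost the call, 65 gained it and 1 reversed.

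Every library had 18727255 counts or more. Members at about 3 CPM or less (Cox4i2, Ndufc1, Cox6b2, Atp5i) had standard errors from 0.31 to 0.36 on the log2 scale at D4. Those of Sdha, Sdhc and Uqcrc2 were 0.08 to 0.09.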
